A study of Homo sapiens with 2 samples.

Results

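The epidermal differentiation complex is a cluster of genes on the long arm of chromosome 1 that encode proteins of the outer layers of squamous epithelia. Its H3K27ac-associated chromatin loops were examined in KYSE180, an established cell line of esophageal squamous cell carcinoma (ESCC). The cells had received a non-targeting siRNA, and no other treatment was part of this experiment. H3K27ac HiChIP joins DNA that lies close together in the nucleus, enriches it for histone H3 acetylated at lysine 27, a mark of active promoters and enhancers, and reads the joined pairs as contacts between regions. There were 2 libraries of 1 condition, and they share 1 deposited list of loops, so no value has a replicate spread and no test between samples could be made. A loop was taken as a member if at least 1 of its bins starts between 151.9 and 153.7 Mb of chromosome 1 on hg19, the genome build named in the processing notes. This gave 84 of the 31950 loops of the list, or 0.263% (95% Wilson interval 0.212 to 0.325%), and 2.97% of the 2833 loops of chromosome 1. Each loop of the complex joins 2 bins of 2 kb, called anchors here, and carries a count of contacts and the coverage of its first bin. The study's methods describe the called loops as associated with p63, a transcription factor of squamous epithelia, so the list need not hold every H3K27ac loop of the region. Intervals cover counting error only, and loops that share an anchor are not independent.

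The complex is known for its order. S100A10 marks the low end, the late cornified envelope (LCE) genes, involucrin (IVL) and the small proline-rich (SPRR) genes lie in the middle, and a large block of S100 genes lies at the high end. S100 proteins are small calcium-binding proteins, some of which act in basal and proliferating cells and others in inflamed epithelium. Between S100A11 and the LCE genes lie the genes of fused S100-type proteins. Among them are filaggrin (FLG), trichohyalin (TCHH), repetin (RPTN), hornerin (HRNR) and cornulin (CRNN). Some of these proteins, such as filaggrin, bind or organise keratin filaments in differentiated cells. IVL, loricrin (LORICRIN), SPRR and LCE proteins are cross-linked into the cornified envelope of the uppermost cells. PGLYRP3 and PGLYRP4, which encode peptidoglycan recognition proteins, lie between LORICRIN and the S100 block of the high end. From S100A10 to S100A1 the RefSeq annotation lists 63 protein-coding genes, 59 of which belong to the groups described here. That annotation is on GRCh38, so it was used for names, order and promoter sequence, and its positions were not laid over the loops. A loop end is therefore given by its bin and not by a gene.

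Sequence at the promoters of the complex differed between these groups. As examples, 1 gene from the low end, 1 from the middle and 1 from the high end are printed, and they need not stand for their groups. The RefSeq promoters (GRCh38.p14, 250 bases before to 50 after the start) are chr1:151993810-151994109 on the minus strand for S100A10, chr1:152908296-152908595 on the plus strand for IVL and chr1:153565795-153566094 on the minus strand for S100A2, which encodes an S100 protein of basal epithelial cells and has 2 listed promoters, of which the upstream one is shown. Capitals mark TGANTCA, with N any base, and TATAAA, the sequence of the TATA box. TGANTCA was used as a loose form of the motif bound by AP-1 transcription factors, so a match need not be an AP-1 site.
S100A10: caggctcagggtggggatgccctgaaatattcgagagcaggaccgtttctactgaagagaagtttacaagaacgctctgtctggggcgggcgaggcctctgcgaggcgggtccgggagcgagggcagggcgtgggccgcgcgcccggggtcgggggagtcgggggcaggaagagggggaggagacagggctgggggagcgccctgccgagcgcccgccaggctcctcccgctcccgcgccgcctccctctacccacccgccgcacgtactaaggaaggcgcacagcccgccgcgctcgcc
IVL: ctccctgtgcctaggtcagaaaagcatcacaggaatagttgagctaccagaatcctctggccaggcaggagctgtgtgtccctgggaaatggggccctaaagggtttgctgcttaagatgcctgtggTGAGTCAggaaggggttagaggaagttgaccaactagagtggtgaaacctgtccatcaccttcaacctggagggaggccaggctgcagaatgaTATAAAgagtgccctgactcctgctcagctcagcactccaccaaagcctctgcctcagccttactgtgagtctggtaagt
S100A2: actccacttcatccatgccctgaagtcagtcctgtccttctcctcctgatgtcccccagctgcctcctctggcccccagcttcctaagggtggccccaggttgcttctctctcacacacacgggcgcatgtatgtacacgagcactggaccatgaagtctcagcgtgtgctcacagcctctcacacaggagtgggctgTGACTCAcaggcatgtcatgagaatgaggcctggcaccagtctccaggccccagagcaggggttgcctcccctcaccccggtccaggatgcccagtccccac
The S100A10 promoter held neither motif and 32 CG dinucleotides. The IVL promoter held TGAGTCA 123 bases and TATAAA 30 bases upstream of the start, with 0 CG dinucleotides. The S100A2 promoter held TGACTCA 52 bases upstream and 5 CG dinucleotides, and the other listed promoter of the gene lacked the motif, as did most promoters of the S100 genes of the high end.

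Over the groups, TGANTCA was present in 6 of the 7 promoters of fused S100-type genes, all but that of HRNR. This motif reads the same on both strands. It was present in 10 of the 13 promoters of SPRR genes and other envelope precursors, the exceptions being SMCP, SPRR4 and SPRR2B. SMCP, the neighbour of IVL in gene order, was counted in this group by its position and is not an envelope precursor. The motif was present in 7.71% of all 35116 RefSeq promoters. The LCE genes, with KPRP, held it in 0 of 19 promoters, and both S100 genes of the low end and both PGLYRP genes lacked it. In the S100 genes of the high end it was found in 4 of 21 promoters, at S100A12, S100A5, S100A3 and S100A2. TATAAA was searched on both strands and over the whole promoter, so a match need not be a working TATA box. TATAAA was present in 5 of 7, 9 of 13 and 9 of 19 promoters of the fused S100-type, SPRR and LCE groups, against 11.5% of all promoters. It was also present in 8 of 21 promoters of the S100 genes of the high end, and in 0 of 2 each of the S100 genes of the low end and of the PGLYRP genes. CG dinucleotides numbered at most 6 in each promoter of these 3 groups, while S100A10 and S100A11 had 32 and 22, against a median of 14 over all promoters. The S100 genes of the high end ranged from 1 to 31 with a median of 5, the 31 being S100A6. The SPRR genes are near copies of each other, and so are the LCE genes. Promoters within each of these families are therefore not independent, and those within the other groups need not be. Of the 59 genes, 56 had a promoter in the table. These counts describe the reference sequence and say nothing about binding in KYSE180.

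**Figure D1:**
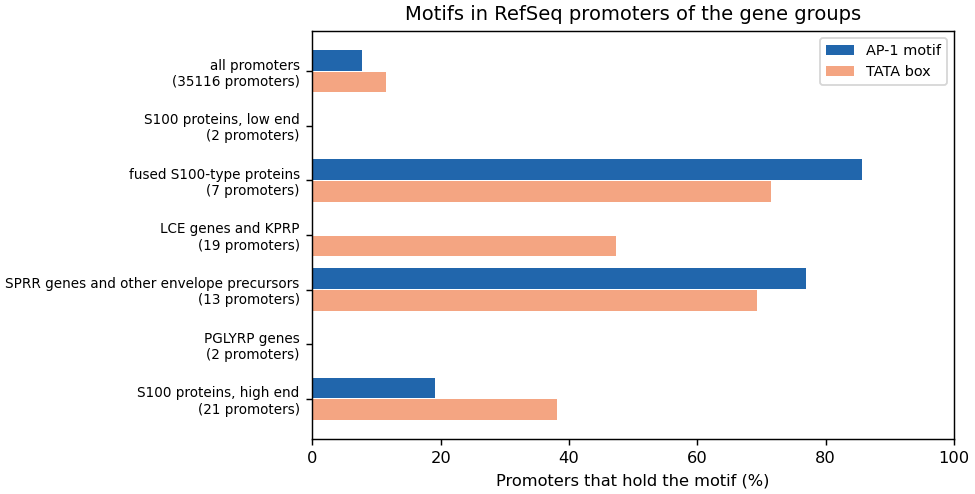
Share of RefSeq promoters, in %, that hold TGANTCA, labelled AP-1 motif (blue), or TATAAA on either strand, labelled TATA box (orange). Bars stand for all promoters and for each gene group of the complex in order along the chromosome, with the number of promoters in brackets. The fused S100-type genes (6 of 7) and the SPRR group (10 of 13) stand far above the 7.71% of all promoters for TGANTCA, and the LCE group has 0 of 19.

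The loops of the complex lay at its ends. When the region was cut into 3 equal segments of 600 kb, the low segment (chr1:151900001-152500000, with S100A10 at its low end) held 48 of the 137 loop ends that fall in the region, or 35.0% (Wilson interval 27.6 to 43.3%). The middle segment (chr1:152500001-153100000), in the part of the complex assigned to the LCE, IVL and SPRR genes, held 5 ends, or 3.65% (1.57 to 8.26%). The high segment (chr1:153100001-153700000), with the S100 block, held 84 ends, or 61.3% (53.0 to 69.1%). The borders are equal cuts, made after the list was seen, and need not fall between gene groups. Most loops give 2 of these ends, so the intervals, which treat the ends as independent, may be too narrow, and the shares are a description.

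The same order held for anchors, with 28 in the low, 5 in the middle and 31 in the high segment. Each anchor of the low segment had 1.71 loop ends on average and each anchor of the high segment 2.71, whereas all 5 anchors of the middle segment had 1 loop. Compared with other windows of 600 kb that hold at least 1 loop end (2942 windows, with a median of 6 loops and 7 anchors), the high segment, with 53 loops, had more loops than 94.4% of windows and the low segment, with 29, more than 86.4%. The middle segment, with 4 loops, had more than 36.5%. The middle segment was thus somewhat sparser than the median of the windows with a loop end, and both ends were denser. Windows without a loop end were left out, so the place of the middle segment among all windows is not known.

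**Figure D2:**
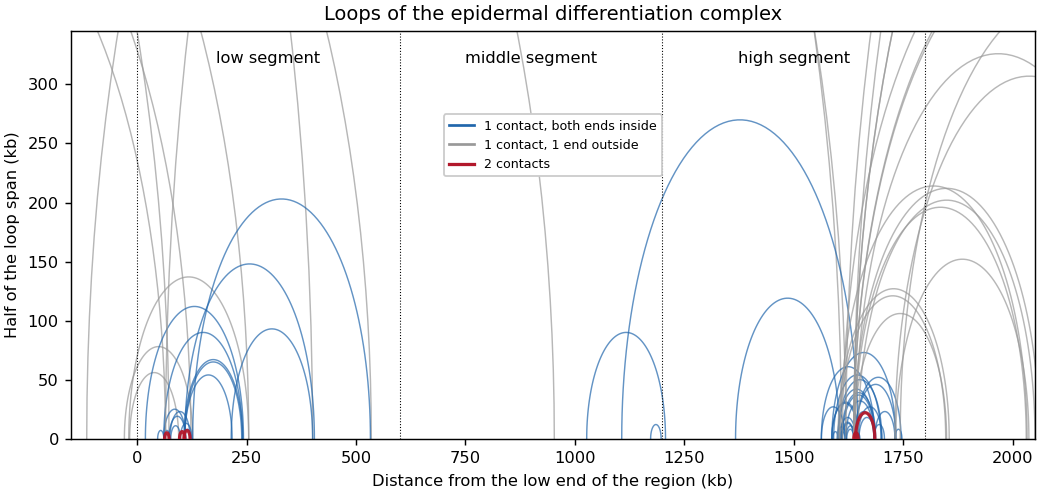
Loops of the complex drawn as arcs over the distance from the low end of the region in kb, with the height of an arc in kb growing with the span and dotted lines at the borders of the segments. Loops with 1 contact are blue where both ends lie in the region and grey where 1 end lies outside, the 5 loops with 2 contacts are red, and arcs of loops that leave the frame are cut off. Arcs gather at both ends of the region, and no arc joins the low segment to the middle or high segment.

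Ends were also uneven on a finer scale. Of the 18 windows of 100 kb, 5 held no loop end, while the window from 153500001 to 153600000 held 62 of the 137 ends, or 45.3% (37.2 to 53.6%), on 17 anchors. In the whole list, 93 of 9341 windows of 100 kb with a loop had as many loops as its 47. The next in number were the first 2 windows of the low segment, with 19 ends on 11 anchors and 16 ends on 7 anchors. These 3 windows together held 70.8% (62.7 to 77.8%) of the ends.

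Neighbouring anchors of the region were separated by 63 gaps. The widest of these, without any anchor, ran from 152436001 to 152852000 (416 kb). Of the 34877 gaps between neighbouring anchors in the list, 3.31% were as long. The second widest gap ran from 153268001 to 153462000 (194 kb), which 6.67% of gaps reached. Both shares describe any single gap, whereas the widest of 63 gaps were picked here. They do not show that the region has more long gaps than the list. The median gap was 2 kb in the region and 8 kb in the list. Between the outer edges of the widest and second widest gaps, over 1026 kb, there were 7 anchors with 1 loop each, or 5.11% (2.50 to 10.2%) of the ends. This stretch was bounded by those gaps, so a low share of ends was set by its choice. A gap in this list does not show that acetylation is absent, since only bins with a called loop are listed and the call is described as p63-associated. How far that selection sets the distribution of ends along the region was not tested.

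**Figure D3:**
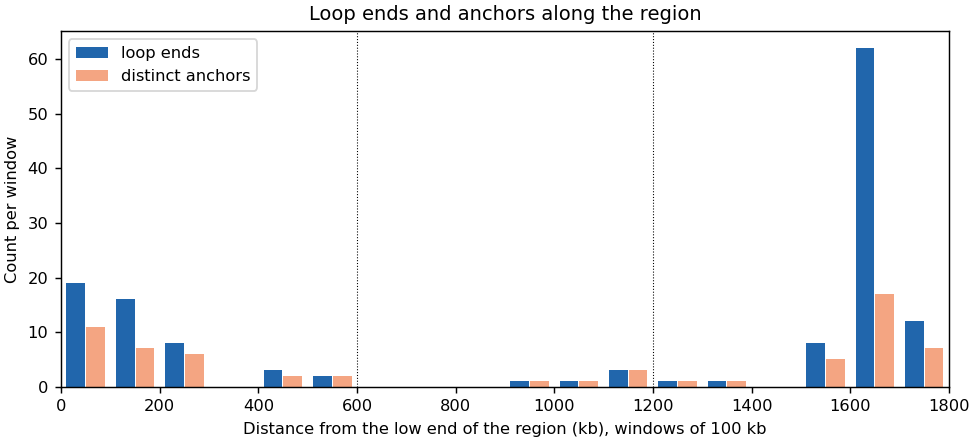
Loop ends (blue) and distinct anchors (orange) in windows of 100 kb, by the distance of the window from the low end of the region in kb, with dotted lines at the borders of the segments. The highest bar, 62 loop ends, is the window 1600 to 1700 kb from the low end, and 5 windows are empty.

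The 4 loops with an end in the middle segment had 1 contact each. The bin chr1:152852001-152854000 was joined to 151370001, outside the region and 1482 kb away, by a loop whose first bin had a coverage of 45. The bin chr1:152926001-152928000, with a coverage of 9, was joined to 153106001, 180 kb away. The bin chr1:153006001-153008000, with a coverage of 19, was joined to 153546001 in the high segment, 540 kb away, and this was the longest loop with both ends in the region. The bin chr1:153072001-153074000, with a coverage of 17, was joined to 153096001, 24 kb away. Coverage of the 3 first bins inside the segment was thus within the range of first bins elsewhere in the region, and each single contact has a wide exact 95% Poisson interval of 0.0253 to 5.57.

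No loop joined the low segment to the middle or the high segment. A count of 0 of 84 loops allows a share of up to 3.57% for each of these pairs, at 3 counts. Inside the low segment there were 19 loops and inside the high segment 31, both with a median span of 46 kb, and 2 loops joined the middle to the high segment. When anchors that touch were merged into stretches and followed through loops with both ends in the region, the 33 stretches fell into 6 unconnected groups. The largest, from 153006001 to 153648000, held 15 stretches and 32 loops. The next, from 151918001 to 152436000, held 12 stretches and 19 loops. The other 4 groups had 1 or 2 stretches. A gap of 416 kb lies between the anchors of the low and middle segments, against a median span of 46 kb for loops with both ends inside. Neither the groups nor the missing pairs of segments were counted in other windows. No separation particular to the complex is therefore read from them. Of the pairs of anchors at least 10 kb apart, 5.40% (3.48 to 8.28%) were joined in the low segment and 7.23% (5.14 to 10.1%) in the high segment, and these intervals overlapped.

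At the low end, where S100A10 lies, loops linked several close runs of anchors and a few bins farther on. The bin chr1:151960001-151962000 had 4 loops with 1 contact each and a coverage of 64, which 1.94% of the 21636 first bins of the list reached. Its partners lay 14 to 180 kb away. The bin chr1:152008001-152010000 had 4 loops with 5 contacts and a coverage of 35, with partners 12 to 296 kb away. The stretch around it (152006001 to 152012000) was joined to 7 other stretches, all in the region, and 5.99% of all stretches had as many. The bin at 151960001 was joined to 152010001, in that stretch, by 1 loop of 50 kb. Both runs also reached bins from 152138001 to 152142000, with 1 loop of 180 kb from the lower run and loops of 130 and 134 kb from the upper one. The most distant partner inside the segment was reached by the loop from 152026001 to 152432001, with a span of 406 kb.

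The high end held the most connected anchors. The bin chr1:153536001-153538000 had 12 loops with 13 contacts, 14.3% (8.37 to 23.3%) of the loops of the complex, and 0.301% of the anchors of the list had as many. Its coverage was 152, the highest among the first bins of the region, and 0.139% of first bins in the list were as high. Anchors that are never the first bin of a loop have no coverage value. On its lower side it was joined to 153508001, 153510001 and 153520001. On its upper side it was joined inside the region to 153546001 with 2 contacts and to 153582001 with 1. The other 7 loops left the region and ended at 153748001, 153960001, 154366001, 154380001, 154970001, 154972001 and 155532001, at spans of 212 to 1996 kb. The bins at 154970001 and 154972001 touch, so this anchor had a pair of neighbouring partners more than 1 Mb away, each with 1 contact.

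Next in number of loops came chr1:153540001-153542000, with 7 loops, 8 contacts and a coverage of 74, and chr1:153584001-153586000, with 6 loops, 7 contacts and a coverage of 81. These 2 bins were joined to each other by a loop of 44 kb with 2 contacts. All 6 partners of 153584001 lay in the region, 36 to 122 kb away, while the partners of 153540001 reached 652 kb. The bins at 153546001, 153504001 and 153518001 had 5 loops each, with coverages of 67, 19 and 12. The last of these, at a coverage of 12, had partners outside the region on both sides, at 151784001 and at 155658001, the latter 2140 kb away.

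With the anchor of 12 loops, 3 of the 64 anchors of the region, or 4.69% (1.61 to 12.9%), had 6 or more loops, against 3.05% of all anchors. Anchors with 1 loop numbered 33 of 64, or 51.6% (39.6 to 63.4%), against 59.2%. Both intervals held the value of the list. The 64 anchors share loops and are not independent, so these shares are a description and no difference is read from them. The 3 highly connected anchors all lay in the high segment, within 50 kb of each other.

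The 3 anchors with the most loops were also the 3 first bins of the region with the highest coverage. The 4 first bins of the high segment with a coverage of 67 or more had 12, 7, 6 and 5 loops, but the bins at 153504001 and 153518001 had 5 loops at a coverage of 19 and 12, and 151996001 had 1 loop at a coverage of 46. Over the first bins in each segment, coverage had a median of 14.5 (2 to 64, 14 bins) in the low, 17 (9 to 19, 3 bins) in the middle and 24.5 (2 to 152, 22 bins) in the high segment. These ranges overlapped. Over the 51 first bins of all loops of the complex the median was 20 (interquartile range 12.5 to 36), against 15 (10 to 24) in the rest of chromosome 1 and 12 (8 to 20) in the rest of the list. The part of copy number or of the density of active chromatin in this coverage was not tested. The contacts of the complex made up 6.0% of the coverage of its first bins, against 6.83% in the rest of chromosome 1 and 9.15% in the rest of the list. However, 12 of the 51 first bins lie below the region. Their coverage is counted in full, but only their loops into the region are counted. This can lower the share of the complex, so no difference is read from these values.

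**Figure D4:**
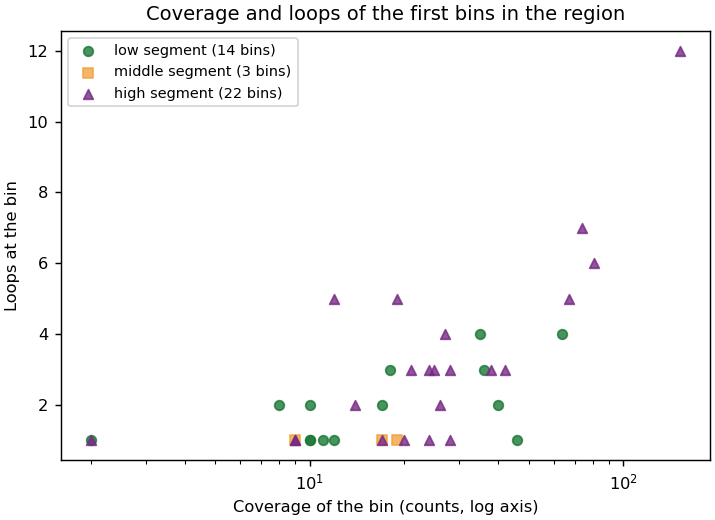
Loops at each bin of the region that is the first bin of a loop, against the coverage of that bin in counts on a log axis, with 14 bins of the low segment (circles), 3 of the middle (squares) and 22 of the high segment (triangles). The triangle at the top right is the bin with 12 loops and a coverage of 152, and all squares have 1 loop.

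Only 5 loops of the complex had more than 1 contact, and each had 2. At the low end these were the loops from 151962001 to 151972001 (10 kb), from 151996001 to 152008001 (12 kb) and from 152006001 to 152020001 (14 kb), with first-bin coverages of 12, 46 and 36. At the high end they were the loops from 153536001 to 153546001 (10 kb) and from 153540001 to 153584001 (44 kb), with coverages of 152 and 74. None lay in the middle segment. Their share was 5.95% (2.57 to 13.2%), against 3.36% of the list. All 5 spanned less than 50 kb, and in that class they were 5 of 27 loops, or 18.5% (8.18 to 36.7%), against 7.23% (6.74 to 7.76%) in the rest of the list. The lower bound for the complex lies just above the upper bound for the rest, but with 5 loops, 4 of them in pairs with a stretch in common, this is a description and not a test. Above 50 kb, 0 of 57 loops had a second contact.

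Spans in the complex were close to those elsewhere. The median was 117 kb (interquartile range 36 to 456 kb, from 10 to 2398 kb), against 114 kb in the rest of chromosome 1 and 120 kb in the rest of the list. Loops of 1 Mb or more numbered 13, or 15.5% (9.27 to 24.7%), against 11.7% of the list, which lies inside this interval. None of these 13 had both ends in the region. Of the loops, 69 of 84 (82.1%, 72.6 to 88.9%) passed over at least 1 other anchor stretch, against 79.1% (78.6 to 79.5%) in the rest of the list.

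In 53 of the 84 loops (63.1%, 52.4 to 72.6%) both ends lay in the region, with a median span of 46 kb. Windows of the same width of 1.8 Mb with at least 20 loops had a median share of 68.2% (interquartile range 57.7 to 78.3%, 504 windows), and 37.7% of them had a lower share than the complex. In 12 loops the other end lay below the region, and in 19 above it. All 31 of these loops had 1 contact, and they ended in 12 and 19 distinct bins.

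Most loops that left the region did so on the side nearer to their anchor. The low segment sent 9 loops below and 1 above, and the high segment 2 below and 18 above. The 1 loop from the low segment that crossed the rest of the complex joined 151964001 to 154326001, 2362 kb away. The longest loop of the complex joined 149902001 to 152300001, at 2398 kb. Above the region, 5 loops ended in 5 bins between 153930001 and 153962000 and 5 in 5 bins between 154326001 and 154396000. The first set came from 5 anchors and held only loops from the high segment. The second came from 153510001, 153642001, the bin with 12 loops (with 2 of the 5) and 151964001. Below the region, the nearest ends were 3 bins between 151870001 and 151884000.

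Among 1318 windows of 1.8 Mb with a loop, the complex with 84 loops and 64 anchors had more loops than 91.8% and more anchors than 88.8%. The median window had 12 loops and 15 anchors. The adjoining windows of the same width held 99 loops below (from 150100001 to 151900000) and 124 above (from 153700001 to 155500000), so the complex had fewer loops than either neighbour although it ranked high in the list.

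**Figure D5:**
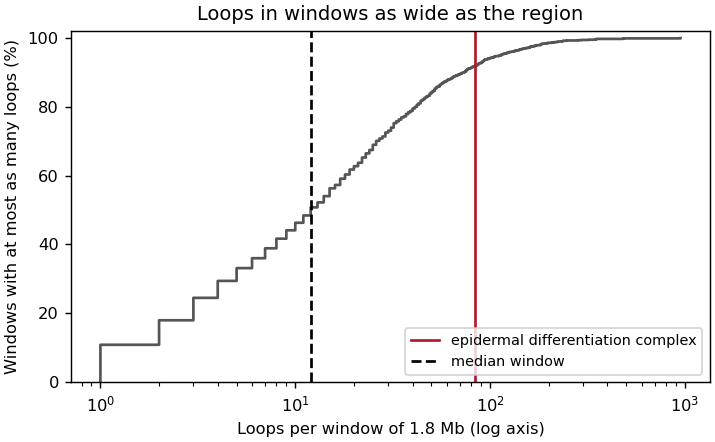
Share of windows, in %, with at most a given number of loops, against the number of loops per window of 1.8 Mb on a log axis, for the 1318 windows with a loop. The red line marks the complex at 84 loops and the dashed line the median window at 12.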

How the data were processed

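H3K27ac HiChIP was done in KYSE180 cells with non-targeting siRNA, in 2 libraries (1 group). Per the study's methods, reads went through the HiC-Pro pipeline, FitHiChIP (Peak-To-All mode) called loops that the methods describe as p63-associated and active, and the authors dropped loops lacking H3K27ac at an end. Versions and thresholds are not given in the sources used here. The submitters' processing notes name hg19, and positions on 13 of 25 chromosomes lie past the ends of hg38. The deposited list holds 2 columns of counts, not normalized and unnamed, read here as contacts and as coverage of the first bin: coverage was constant within each of 21636 first bins, and contacts exceeded it in 0. The total depth of the libraries is unknown.

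Loops, anchors, merged stretches and windows were counted in Python 3.11.15 with pandas 2.3.3, numpy 2.4.6, scipy 1.17.1 and networkx 3.6.1, by functions checked on simulated lists. Windows of equal width were tiled in phase with the region, and windows with no loop end were left out. Shares have 95% Wilson intervals and counts exact Poisson intervals, and no test was made. Named anchors were to be the 10 with the most loops, every loop with 2 or more contacts, the 5 longest loops and the 5 best connected stretches. The text gives a selection of these, and adds the middle-segment loops and bins named for their coverage or partners, chosen after their values were seen. The members and gene groups were chosen with earlier results of these data known, and the segments of 600 kb and the motifs after the list was seen. Promoter sequences are from RefSeq (GRCh38.p14).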

Additional observations from a re-analysis of the deposited data

How the results depend on the processing

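No paired analysis was possible because the 2 libraries belong to 1 group, and leaving out a replicate was not possible as their loops were deposited together. Genes with a promoter loop and their alternatives were not run, since no gene positions on hg19 were used here. Alternatives gave 33 values for 11 results, of which 15 moved by less than the counting error (counts, less than 1.5 times) and 18 by more. Except where the alternative by its construction selects fewer or other loops, the cause was not tested.

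With both bins in the region, 53 loops with a median span of 46 kb remained in place of 84 with 117 kb. With at least 2 contacts, there were 5 loops with a median span of 12 kb on 9 stretches in place of 33, 100% of them had both bins in the region, and 40% passed over another stretch in place of 82.1%. The share of loops with 2 or more contacts, 5.95%, was 1.39% with spans of at least 20 kb, 18.5% from 10 to 50 kb, and 0% in each of the classes from 50 to 200 kb, from 200 kb to 1 Mb and from 1 to 5 Mb. The percentile of the loop count, 91.8, was 88.8 for anchors and 93.2 on chromosome 1 alone. The densest window held 36.5% of ends at 50 kb, 54.0% at 200 kb and 26.6% of distinct anchors, in place of 45.3%. The median coverage was 26.5 with each loop counted, in place of 20. Alternatives chosen after seeing the data, namely leaving out the anchor with 12 loops (72 loops, 37.5% of ends in the densest window) and the stretch between the widest gaps (5.11% of ends), were among the 15. That stretch was chosen by its gaps, so its low share is no check on the middle segment. Nearly every loop rests on 1 contact, which limits each single loop.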
